A study of Homo sapiens with 8 samples.

Results

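Matrix metalloproteinases (MMPs), the related ADAM and ADAMTS proteinases, the ADAMTS-like proteins and the tissue inhibitors of metalloproteinases (TIMPs) were examined in adipose-derived mesenchymal stem cells (ADSCs) treated with the histone deacetylase inhibitor SAHA. The members were all measured genes whose symbol was MMP, TIMP, ADAM, ADAMTS or ADAMTSL followed by a number. That gave 69 of the 18508 genes, namely 22 MMP genes, 3 TIMP genes, 20 ADAM genes, 19 ADAMTS genes and 5 ADAMTSL genes. TIMP2 and MMP23B were not analysed here.

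The cells were ASC52telo, a single human line of ADSCs immortalized with telomerase reverse transcriptase, and expression was measured on 8 Clariom S arrays. The SAHA group had 3 arrays of cells given SAHA at 1000 nM for 72 h, the EtOH group had 2 arrays of cells given the ethanol vehicle, and the untreated group had 3 arrays. Cells of every group had been deprived of serum for 24 h beforehand, and the cells received fresh medium after the treatment. Replicates 1, 2 and 3 carried the numbers p6, p10 and p16 in the labels, and the EtOH group held replicates 1 and 3. The labels call the replicates biological. All came from 1 cell line, so the p-values do not measure the spread between donors. The deposited values have equal means for every replicate number in each gene. The p-values therefore measure only the spread left between samples of that line within the replicate numbers.

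MMPs are secreted or membrane-bound zinc proteinases that cleave collagens, proteoglycans and other matrix proteins. TIMPs bind the active site of these enzymes and block it. ADAM proteinases mainly release the outer parts of membrane proteins, whereas ADAMTS proteinases are secreted and act on proteoglycans and procollagens. ADAMTSL proteins share the ancillary domains of ADAMTS proteins but lack the proteinase domain. Mesenchymal stromal cells are known to secrete MMPs and TIMPs while they remodel connective tissue. SAHA (vorinostat) is a hydroxamic acid that inhibits zinc-dependent histone deacetylases.

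No member of these families passed the test for SAHA against the combined controls. The combined controls were the 5 EtOH and untreated arrays, and a call was an adjusted p under 0.05 with a change of at least 1.5-fold in limma. Among all 18508 genes this rule called 0.735%, with 81 genes higher and 55 lower. At an unadjusted p under 0.05 in limma, 12 members (17.4%) were higher with SAHA, against 5.82% of all genes. At the same threshold 4 members (5.8%) were lower, against 9.58% of all genes. The unmoderated unpaired test that the methods name called 0 members after adjustment. It gave 15 members at an unadjusted p under 0.05, where 14.3% of all genes were. The lowest p-values belonged to the membrane-type proteinase MMP16 and the inhibitor TIMP1, which were higher with SAHA, and the inhibitor TIMP4, which was lower.

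The promoters of the 3 measured TIMP genes are printed because the inhibitors included members that differed from the controls in opposite directions. None of these genes passed the test. The sequences are from RefSeq, build GRCh38.p14, and run from 250 bases before to 50 bases after the start of the gene. Capitals mark the GC box GGGCGG on either strand, a sequence known to be bound by factors of the Sp family. TIMP1 lies on the plus strand at chrX:47582186-47582485, TIMP3 on the plus strand at chr22:32801455-32801754 and TIMP4 on the minus strand at chr3:12158863-12159162.
TIMP1: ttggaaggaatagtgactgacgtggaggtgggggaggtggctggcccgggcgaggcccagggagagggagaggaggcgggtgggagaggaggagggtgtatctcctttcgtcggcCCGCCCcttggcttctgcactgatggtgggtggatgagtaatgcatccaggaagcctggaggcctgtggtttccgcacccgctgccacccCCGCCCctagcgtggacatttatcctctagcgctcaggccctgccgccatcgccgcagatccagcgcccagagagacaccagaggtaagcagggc
TIMP3: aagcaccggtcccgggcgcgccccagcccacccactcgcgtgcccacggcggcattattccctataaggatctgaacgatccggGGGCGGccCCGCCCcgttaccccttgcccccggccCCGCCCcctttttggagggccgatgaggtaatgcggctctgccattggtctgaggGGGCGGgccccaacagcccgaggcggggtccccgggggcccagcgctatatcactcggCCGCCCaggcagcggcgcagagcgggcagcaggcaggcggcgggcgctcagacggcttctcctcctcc
TIMP4: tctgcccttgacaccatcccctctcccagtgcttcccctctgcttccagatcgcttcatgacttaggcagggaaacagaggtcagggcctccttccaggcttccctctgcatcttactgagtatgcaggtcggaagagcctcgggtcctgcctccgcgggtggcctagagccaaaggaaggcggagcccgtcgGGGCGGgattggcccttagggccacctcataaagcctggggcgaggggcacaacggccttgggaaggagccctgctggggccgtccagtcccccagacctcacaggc

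The GC box occurred 2 times in the TIMP1 window, 5 times in the TIMP3 window and 1 time in the TIMP4 window. A window was available for 43 of the 69 members, and 29 of them (67.4%) held GGGCGG on either strand, against 59.5% of the 14415 measured genes that had a window. The AP-1 element TGANTCA, long known from MMP promoters, was in 4 of the 43 windows (9.3%), those of MMP7, MMP10, MMP20 and ADAMTS12, against 5.79% of all windows. None of the 3 TIMP windows held exactly these letters. The TIMP1 window holds TGAGTAA and TGACTGA and the TIMP4 window holds TGACTTA, each of which differs from TGANTCA in a single letter. Such variants were not searched for. TATAAA was in 9 of the 43 windows (20.9%), against 9.37% of all, and 6 of these 9 belonged to MMP genes, namely MMP7, MMP8, MMP10, MMP20, MMP21 and MMP26. A letter match describes the window and is no evidence of binding.

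Expression values were deposited as log2 values whose zero point is not stated, and the median gene of an array lay between 0.26 and 0.33. Of the members, 19 lay above the median of their own array on all 8 arrays, and 27 were among the 6169 genes with the lowest mean. The marker genes of ADSCs were present, as NT5E, THY1, ENG, CD44, ITGB1, PDGFRB and CD36 were above the array median on all 8 arrays. Among the markers of other cell types, the values over all 12 blood, adipocyte and epithelial markers stayed between -0.47 and 0.67, and the endothelial markers reached 1.58 at most, in TEK. CD36 rose with SAHA by 1.03 (adjusted p = 0.029), a call that was lost with the replicate number as a block (adjusted p = 0.064) and without untreated replicate 1 or 2 or SAHA replicate 1 or 3 (adjusted p of 0.053 to 0.099).

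The inhibitors are described first. TIMP1, an inhibitor that binds the pro-form of MMP9, had log2 values of 6.77, 6.37 and 6.38 in SAHA replicates 1 to 3. The values were 5.77 and 5.75 on the EtOH arrays and 5.86, 5.90 and 6.27 on the untreated arrays. All 3 SAHA arrays were above all 5 controls and untreated replicate 3 was the nearest control.

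The mean of TIMP1 was 6.51 ± 0.23 (SD, n = 3) with SAHA and 5.91 ± 0.21 (SD, n = 5) in the controls. The difference was 0.60 in log2 units (standard error 0.14, 95% interval 0.28 to 0.91), a fold of 1.51, with an adjusted p of 0.087. Without untreated replicate 3 the difference was 0.69 and the adjusted p 0.0398, which passed the test. Against the EtOH group alone TIMP1 was higher by 0.74 (adjusted p = 0.15) and against the untreated group by 0.50 (adjusted p = 0.15).

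TIMP3, the matrix-bound inhibitor that also blocks ADAM17 and the hyalectan-cleaving ADAMTS proteinases, had values of 8.43, 7.85 and 8.36 with SAHA. It had 7.67 and 7.64 on the EtOH arrays and 7.65, 7.98 and 7.74 on the untreated arrays. SAHA replicates 1 and 3 were above every control, whereas SAHA replicate 2 was below untreated replicate 2. The difference was 0.47 (standard error 0.14, 95% interval 0.16 to 0.79, adjusted p = 0.16). Leaving out SAHA replicate 2 gave 0.71, more than 1.5 times as large, with an adjusted p of 0.056.

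TIMP4, an inhibitor best known from heart and adipose tissue, went the other way. Its values were 0.25, 0.38 and 0.11 with SAHA, 0.59 and 0.49 with EtOH and 0.57, 0.56 and 0.80 in untreated cells. All 3 SAHA arrays were below all 5 controls. TIMP4 lay near the array medians, unlike TIMP1 and TIMP3. SAHA replicates 1 and 3 were below the medians of their own arrays, which were 0.26 and 0.28. For members at this level the signal over background is unknown, so the opposite direction of TIMP4 is uncertain. The difference was -0.36 (standard error 0.10, 95% interval -0.58 to -0.13, adjusted p = 0.14).

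**Figure D1:**
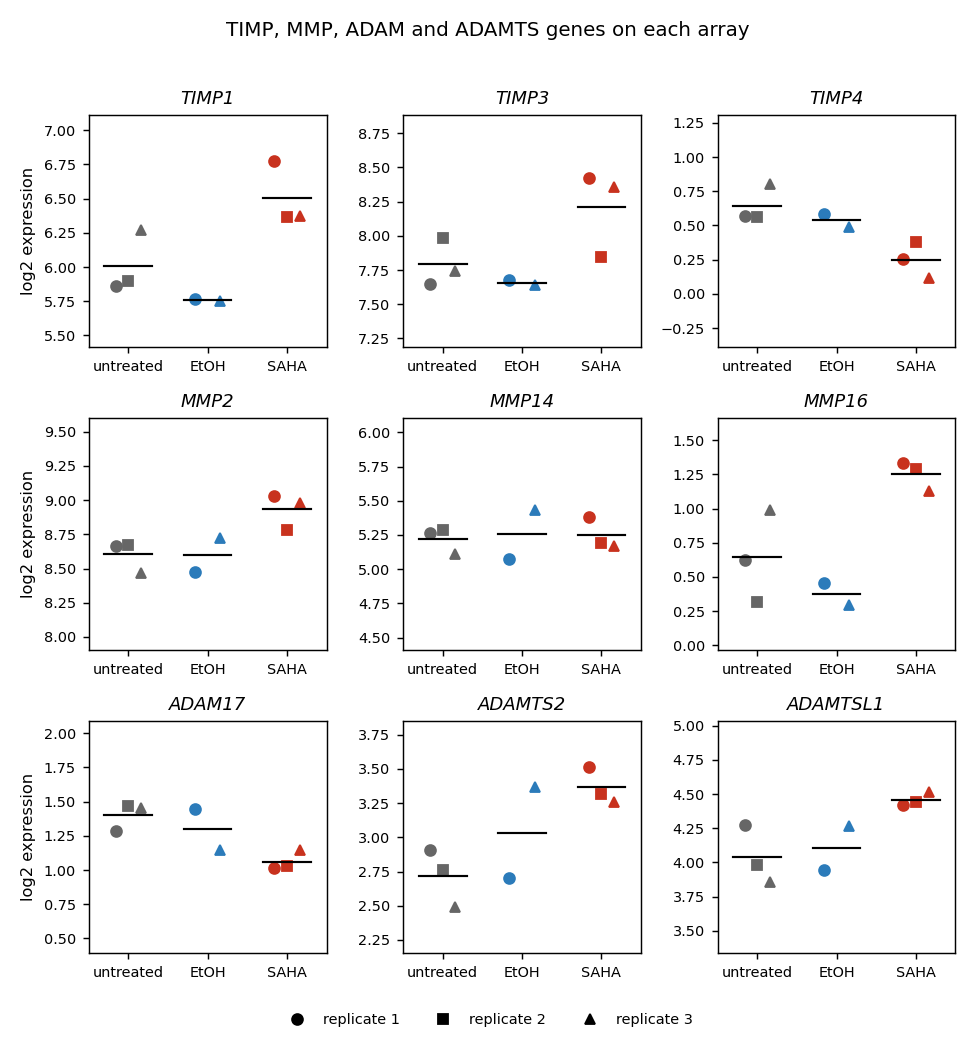
Log2 expression of 9 members on each array, with 1 panel per gene, the groups on the horizontal axis, 1 point per array shaped by replicate number, and a bar at the group mean; each vertical axis spans the same range. TIMP1, MMP2, MMP16 and ADAMTSL1 have all 3 SAHA arrays above the 5 controls, TIMP4 and ADAM17 have them below, and MMP14 overlaps throughout.

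Among the membrane-type MMPs, which are anchored at the cell surface, MMP16 had the lowest adjusted p of all members. MMP16, a pro-MMP2 activator, had values of 1.33, 1.29 and 1.13 with SAHA, 0.46 and 0.29 with EtOH and 0.62, 0.32 and 0.99 in untreated cells. The SAHA arrays were all higher than the controls, and untreated replicate 3 was again the nearest control.

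The difference for MMP16 was 0.71 in log2 units (standard error 0.15, 95% interval 0.37 to 1.05), a fold of 1.64, with an adjusted p of 0.062. MMP16 was higher by 0.87 than the EtOH group (adjusted p = 0.13) and by 0.61 than the untreated group (adjusted p = 0.12). It passed the test with quantile normalization (adjusted p = 0.0489), with the dimmest genes left out (adjusted p = 0.047), with array weights (adjusted p = 0.0245) and without untreated replicate 3 (adjusted p = 0.0176). It did not pass in the other 14 alternatives, which include the replicate block (adjusted p = 0.18) and leaving out SAHA replicate 1 (adjusted p = 0.24), and its adjusted p was at most 0.33.

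MMP24, another membrane-type MMP, lay close to the median of the arrays. It had 0.39, 0.37 and 0.42 with SAHA, 0.13 and 0.23 with EtOH and 0.19, 0.11 and 0.07 in untreated cells. The groups did not overlap, and the difference was 0.25 (standard error 0.08, adjusted p = 0.20). MMP14, the membrane-type MMP that activates pro-MMP2 and cleaves fibrillar collagen, had 5.38, 5.19 and 5.17 with SAHA, 5.08 and 5.44 with EtOH and 5.26, 5.29 and 5.11 in untreated cells. The SAHA arrays lay within the range of the controls, with a difference of 0.01 (95% interval -0.22 to 0.25, adjusted p = 0.97), and that interval excludes a change of 1.5-fold in either direction, also with the replicate block (-0.31 to 0.34). Of the 6 membrane-type MMPs, 4 differences were positive and 2 were negative, with a median of 0.11.

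MMP2, the gelatinase that degrades denatured collagen and basement membrane collagen, had 9.03, 8.78 and 8.98 with SAHA. It had 8.48 and 8.73 with EtOH and 8.67, 8.67 and 8.47 in untreated cells. The SAHA arrays were all above the controls, although SAHA replicate 2 exceeded EtOH replicate 3 by only a small margin. The difference was 0.33 (standard error 0.10, 95% interval 0.10 to 0.56, adjusted p = 0.17). It was 0.13 with quantile normalization (adjusted p = 0.56), and with the replicate block its interval ran from 0.02 to 0.65. MMP9, the other gelatinase, also had all SAHA arrays above all controls, but every value lay between -0.12 and 0.09 and the difference was 0.12 (adjusted p = 0.53).

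The collagenase MMP1, which cuts fibrillar collagen, had 0.61, 1.14 and 0.52 with SAHA, 0.73 and 0.60 with EtOH and 0.42, 0.03 and 0.63 in untreated cells. SAHA replicate 2 was the highest array and the others overlapped with the controls, with a difference of 0.27 (adjusted p = 0.51). Without SAHA replicate 2 it was 0.08, without untreated replicate 2 it was 0.16, and with array weights it was 0.46. The stromelysin MMP3, which cleaves proteoglycans and activates other MMPs, had -0.12, 0.37 and -0.40 with SAHA, -0.02 and 0.33 with EtOH and 0.08, -0.41 and 0.01 in untreated cells. Those values overlapped too, with a difference of -0.05 (95% interval -0.47 to 0.37, adjusted p = 0.93). MMP26, a matrilysin that is the smallest type of MMP, had -0.37, -0.37 and -0.42 with SAHA, -0.20 and -0.10 with EtOH and -0.23, -0.16 and -0.28 in untreated cells. Its SAHA arrays were all below the controls, with a difference of -0.19 (adjusted p = 0.31).

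MMP1 and MMP3 belong to a cluster of 9 MMP genes on chromosome 11 (RefSeq, GRCh38.p14, chr11:102520508-102955732), in the order MMP7, MMP20, MMP27, MMP8, MMP10, MMP1, MMP3, MMP12 and MMP13. Every value of these genes on any array lay between -0.55 and 1.14, and 7 of the 9 were among the dimmest genes. Their differences ran from -0.05 to 0.27, 7 of 9 were positive and 0 had an unadjusted p under 0.05 in limma, with 0 called. Among all genes 5.82% were higher and 9.58% lower at that threshold. None of the 9 had all SAHA arrays beyond all controls, where 4.21% of all genes had them above and 6.25% below, and the lowest adjusted p was 0.34.

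ADAM17 and ADAM10 are the principal sheddases, which release membrane-bound ligands and receptors. ADAM17, which releases tumour necrosis factor and ligands of the epidermal growth factor receptor, had 1.01, 1.03 and 1.14 with SAHA, 1.45 and 1.15 with EtOH and 1.29, 1.47 and 1.45 in untreated cells. All 3 SAHA arrays were below all controls, with EtOH replicate 3 the nearest. The difference was -0.30 (standard error 0.10, 95% interval -0.53 to -0.07, adjusted p = 0.20).

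ADAM10, which cleaves Notch receptors, had 5.41, 5.51 and 5.63 with SAHA, 5.39 and 5.53 with EtOH and 5.31, 5.23 and 4.95 in untreated cells. Its SAHA arrays overlapped with the EtOH arrays and were above the untreated ones, with a difference from the combined controls of 0.24 (adjusted p = 0.42). ADAM12, a marker of activated mesenchymal cells that cleaves proteins binding insulin-like growth factors, had 6.51, 6.51 and 6.73 with SAHA, 6.66 and 6.52 with EtOH and 6.64, 6.70 and 6.57 in untreated cells. The groups overlapped, with a difference of -0.03 (95% interval -0.24 to 0.17). Across the 12 ADAM genes whose proteins have a zinc-binding motif, 7 differences were positive and the median was 0.05. Across the 8 without one, which are thought to act in adhesion, 4 were positive and the median was 0.02.

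ADAMTS2, which removes the amino-terminal propeptide of procollagen, had 3.51, 3.32 and 3.26 with SAHA, 2.70 and 3.37 with EtOH and 2.90, 2.76 and 2.49 in untreated cells. EtOH replicate 3 lay within the SAHA range and the other controls were lower. The difference was 0.52 (standard error 0.17, 95% interval 0.14 to 0.90, adjusted p = 0.19), and without EtOH replicate 3 it was 0.65 with an adjusted p of 0.048. The other procollagen N-propeptidases, ADAMTS3 and ADAMTS14, had differences of 0.07 and 0.05.

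ADAMTSL1 (punctin), a secreted matrix protein without proteinase activity, had 4.42, 4.44 and 4.52 with SAHA, 3.95 and 4.26 with EtOH and 4.27, 3.98 and 3.86 in untreated cells. The SAHA arrays were close together and above every control, with a difference of 0.39 (standard error 0.12, 95% interval 0.13 to 0.65, adjusted p = 0.15). Of the remaining ADAMTS-like genes, ADAMTSL4, a protein of fibrillin microfibrils, was higher by 0.49 (adjusted p = 0.25).

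The hyalectan-cleaving ADAMTS genes encode the proteinases that cut aggrecan and versican. By the group means, 6 of 7 were higher on the EtOH arrays than on the untreated arrays. The share of all genes that were higher in this way was not counted. The median difference of these 7 genes was 0.40 for EtOH minus untreated, 0.28 for SAHA minus untreated and 0.05 for SAHA minus EtOH. Over all genes these medians were 0.0063, -0.028 and -0.036. The 3 comparisons share arrays and are given side by side, without a test of the list. ADAMTS1, ADAMTS4 and ADAMTS15 had an unadjusted p under 0.05 for EtOH against untreated, a threshold that 9.75% of all genes and 7.25% of the members passed, and none passed the adjusted test.

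ADAMTS1 had 5.66, 5.82 and 6.18 with SAHA, 6.14 and 6.18 with EtOH and 5.81, 5.92 and 5.24 in untreated cells. Both EtOH arrays were above all untreated arrays, by 0.50 in the mean (standard error 0.21, adjusted p = 0.50), and the SAHA arrays overlapped with both groups, with a difference of 0.03 from the combined controls. ADAMTS4 had 0.54, 0.36 and 0.49 with SAHA, 0.54 and 0.59 with EtOH and 0.01, 0.37 and 0.01 in untreated cells. EtOH exceeded untreated by 0.44 (adjusted p = 0.43), and SAHA differed from the combined controls by 0.16 (adjusted p = 0.66).

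ADAMTS5, the main aggrecanase of mouse cartilage, had 1.79, 2.75 and 2.47 with SAHA, 2.52 and 2.04 with EtOH and 1.95, 1.42 and 1.75 in untreated cells. The spread within the SAHA group, 0.50 (SD, n = 3), exceeded the difference of 0.40 from the combined controls (95% interval -0.16 to 0.96), so a change of 1.5-fold upward is not excluded. The difference was 0.67 without SAHA replicate 1, 0.19 without SAHA replicate 2 and 0.64 with array weights. ADAMTS15 had 0.13, 0.27 and 0.37 with SAHA, 0.20 and 0.15 with EtOH and -0.17, -0.17 and -0.35 in untreated cells. Its SAHA and EtOH arrays were all above the untreated arrays. It had the lowest adjusted p of all members for SAHA against untreated, 0.073, with a difference of 0.48, while SAHA exceeded EtOH by 0.08 (adjusted p = 0.80).

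**Figure D2:**
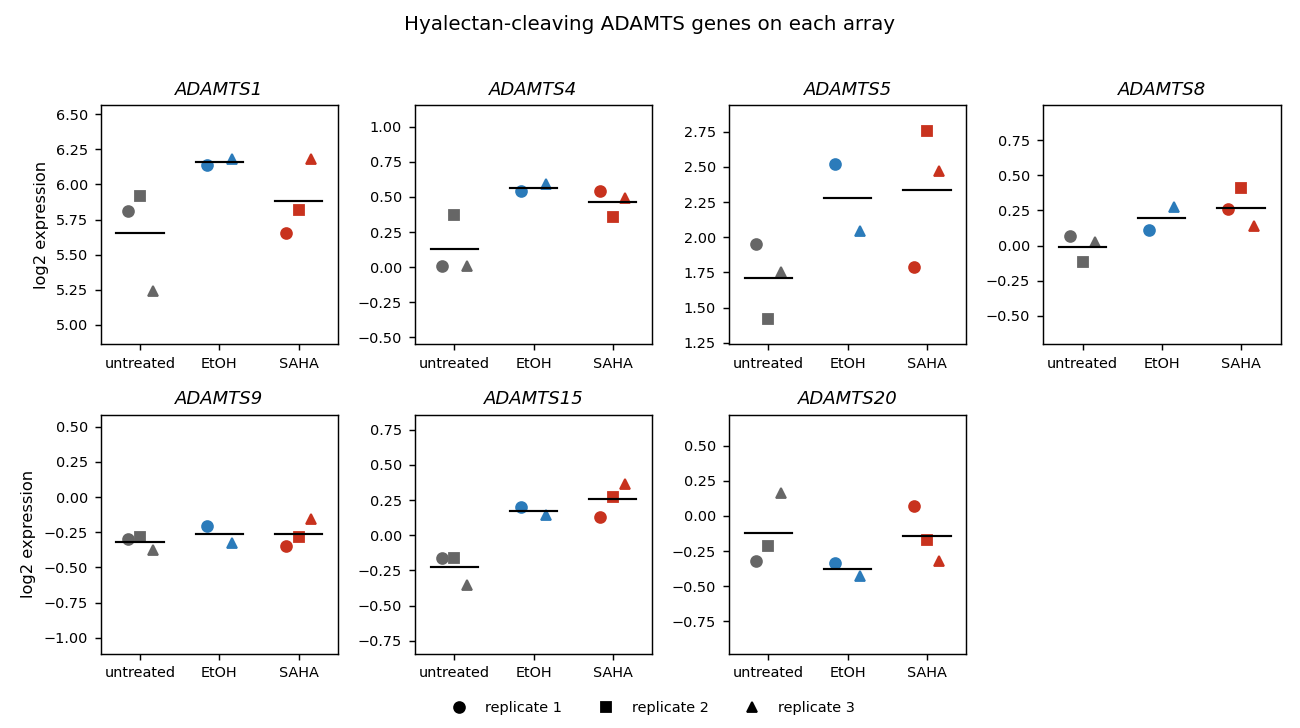
Log2 expression of the 7 hyalectan-cleaving ADAMTS genes on each array, drawn with 1 point per array and a bar at the group mean; each vertical axis spans the same range. In ADAMTS1, ADAMTS4, ADAMTS5, ADAMTS8 and ADAMTS15 both EtOH arrays lie above all untreated arrays, and the SAHA arrays overlap with the EtOH arrays. The share of all genes with both EtOH arrays above all untreated arrays was not counted.

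Over the 3 comparisons by group, limma called 0 members in each. SAHA against EtOH called 0.103% of all genes, SAHA against untreated 0.789% and EtOH against untreated 0%. At an unadjusted p under 0.05, 12 members (17.4%) passed for SAHA against EtOH, where 12.9% of all genes did. For SAHA against untreated it was 20 members (29%) and 16.5% of all genes, and for EtOH against untreated 5 members (7.25%) and 9.75% of all genes. The 5 were ADAMTS1, ADAMTS4, ADAMTS15, ADAMTSL5 and MMP25. MMP25, a membrane-type MMP, had 0.52 and 0.57 with EtOH, 0.09, 0.24 and 0.04 in untreated cells and 0.26, 0.34 and 0.26 with SAHA, so that the SAHA arrays lay between the others.

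For SAHA against the combined controls, the 12 members higher at an unadjusted p under 0.05 were 17.4% of the members, against 5.82% of all genes, and the 4 lower ones were 5.8%, against 9.58%. The lower ones were TIMP4, ADAM17, MMP17 and MMP26. The 6 members with all SAHA arrays above all controls, namely MMP16, TIMP1, ADAMTSL1, MMP2, MMP24 and MMP9, were 8.7% of the members, against 4.21% of all genes. The 4 with all SAHA arrays below, namely TIMP4, ADAM17, MMP26 and ADAMTS18, were 5.8%, against 6.25%.

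The median difference of the 69 members was 0.06, with 45 positive and 24 negative, and the median of all genes was -0.03. Differences ran from -0.40 in ADAM11 to 0.71 in MMP16, and MMP16 and TIMP1 alone reached 1.5-fold. The 95% interval lay inside 1.5-fold in both directions for 54 members (78.3%), as for 81.1% of all genes. With the replicate block, which leaves fewer degrees of freedom, it did so for 49 members (71%) and 71.3% of all genes. Brighter members had lower shares. Of the 42 outside the dimmest genes it was 27 (64.3%), and 22 (52.4%) with the block. Of the 19 above the array median on all 8 arrays it was 11 (57.9%), and 7 (36.8%) with the block. For the other members, which include TIMP1, TIMP3, ADAMTS2, ADAMTS5 and MMP1 in both fits, a change of 1.5-fold was not excluded at this number of arrays.

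**Figure D3:**
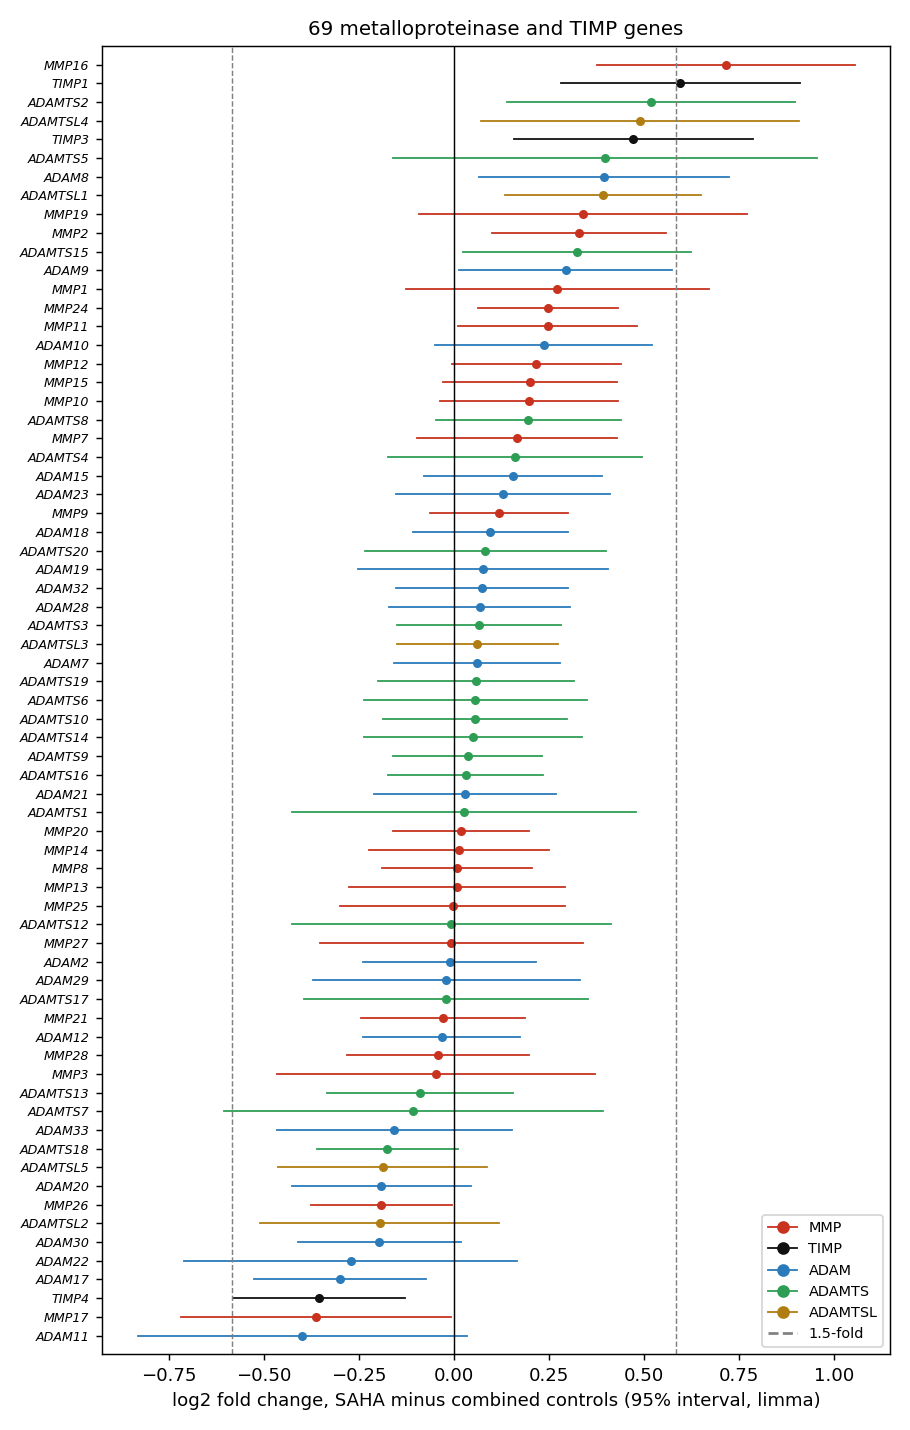
Log2 fold change of SAHA over the combined controls for all 69 members, sorted by size, with points at the limma estimate, lines for the 95% interval and colours for the gene family; dashed lines mark 1.5-fold. MMP16 and TIMP1 are the only points beyond the upper dashed line and no point is beyond the lower one.

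Because the deposited values have equal means for every replicate number, SAHA was also set against the controls of the same number. SAHA was above its controls in all 3 numbers for 13 members (18.8%), against 10.7% of all genes, and below in all 3 for 9 members (13%), against 17.8%. MMP16 was higher by 0.79, 0.97 and 0.49 in numbers 1, 2 and 3, and TIMP1 by 0.96, 0.47 and 0.36. In TIMP3 the differences were 0.76, -0.14 and 0.66, so number 2 went the other way. Number 2 has 1 control array, the untreated one.

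**Figure D4:**
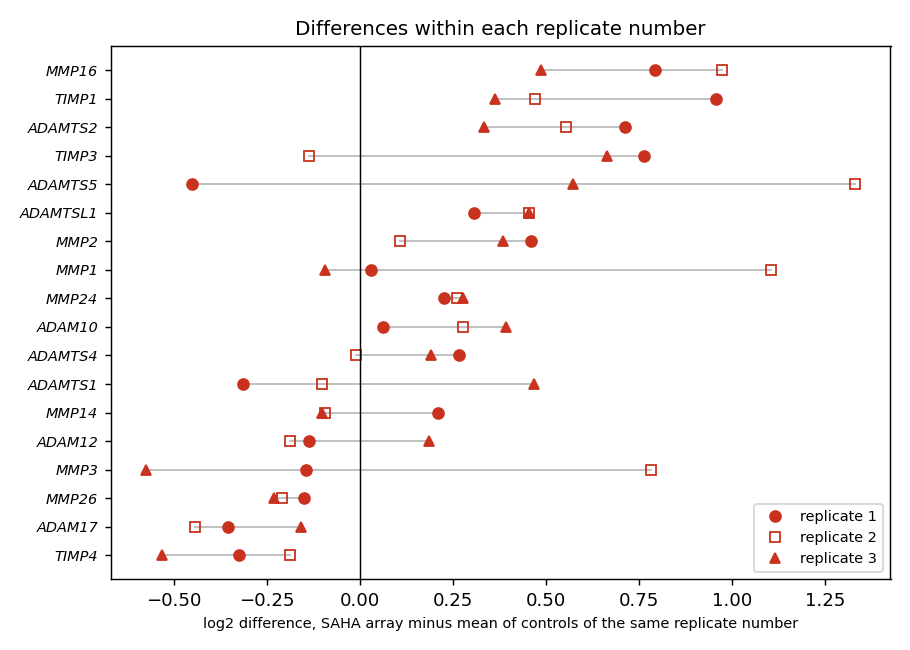
Log2 difference between the SAHA array and the mean of the controls of the same replicate number for the 18 members given in full, with 1 symbol per number and a grey line over their range. MMP16, TIMP1, ADAMTS2, ADAMTSL1, MMP2, MMP24 and ADAM10 are above 0 in all 3 numbers, MMP26, ADAM17 and TIMP4 are below 0 in all 3, and MMP1, MMP3 and ADAMTS5 spread the most.

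Genes that act with these families were read from 3 lists, which were chosen with earlier results of these data known. Of 22 measured regulators of metalloproteinases, 1 rose and 0 fell, where the rule called 0.735% of all genes. The median difference was 0.09, with 13 positive and 9 negative. SERPINE2 (protease nexin 1), an inhibitor of serine proteinases that include plasminogen activators, had 9.68, 9.23 and 9.69 with SAHA, 8.76 and 8.77 with EtOH and 8.84, 8.97 and 8.83 in untreated cells. All SAHA arrays were above all controls, and it rose by 0.70 (standard error 0.12, adjusted p = 0.029), a call that was lost with the replicate block (adjusted p = 0.12), with quantile normalization (adjusted p = 0.062) and without any single array other than SAHA replicate 2 (adjusted p of 0.052 to 0.14). The plasminogen activator genes PLAT and PLAU were higher by 1.07 and 0.91 in limma (adjusted p of 0.051 and 0.22) and were not called. All SAHA arrays were above all controls in PLAT but not in PLAU. RECK, a membrane-anchored inhibitor of MMPs, had a difference of -0.09 (adjusted p = 0.80).

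Of 12 other metzincins and ADAMTS-related genes, 2 rose and 0 fell, where the rule called 0.735% of all genes. The median difference was -0.03. PCOLCE was lower by 0.54 in limma (adjusted p = 0.044), with all SAHA arrays below all controls, and missed only the fold threshold. With the replicate block its adjusted p was 0.22. PAPPA, the metzincin that cleaves the binding proteins of insulin-like growth factors, had 2.88, 2.80 and 3.17 with SAHA, 1.99 and 1.92 with EtOH and 1.79, 1.64 and 1.57 in untreated cells. The SAHA arrays stood well apart, and PAPPA rose by 1.17 (standard error 0.13, adjusted p = 0.0031). THSD4, an ADAMTS-like protein of fibrillin microfibrils that the symbol rule does not reach, had 3.28, 2.94 and 3.19 with SAHA, 1.98 and 2.18 with EtOH and 1.61, 1.64 and 1.49 in untreated cells. It too was separated from every control and rose by 1.36 (standard error 0.16, adjusted p = 0.0046).

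Of 34 measured substrates, 2 rose and 2 fell, where the rule called 0.735% of all genes, and the median difference was 0.08. ACAN (aggrecan), the proteoglycan cut by the hyalectan-cleaving ADAMTS proteinases, had 0.45, 0.30 and 0.98 with SAHA, 2.77 and 2.59 with EtOH and 2.84, 3.75 and 2.50 in untreated cells. Its log2 level fell by 2.31 with SAHA, with a standard error of 0.26 (adjusted p = 0.0039). BGN (biglycan), a small leucine-rich proteoglycan, had 5.28, 5.25 and 5.10 with SAHA, 6.58 and 6.79 with EtOH and 6.50, 6.99 and 6.47 in untreated cells. It fell by 1.46 (standard error 0.13, adjusted p = 0.0011), and in both proteoglycans the groups were clearly apart.

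IGFBP5, a binding protein of insulin-like growth factors that PAPPA and ADAM12 are known to cleave, had 6.11, 6.13 and 7.29 with SAHA, 5.08 and 4.54 with EtOH and 5.11, 4.74 and 4.48 in untreated cells. It rose by 1.72 (standard error 0.26, adjusted p = 0.015). NRG1, a growth factor released from the membrane by ADAM proteinases, had 2.77, 3.04 and 3.57 with SAHA, 2.34 and 1.60 with EtOH and 1.99, 1.69 and 1.92 in untreated cells. It rose by 1.22 (standard error 0.20, adjusted p = 0.021), a call that was lost without untreated replicate 2, SAHA replicate 2 or SAHA replicate 3 (adjusted p of 0.051 to 0.086). VCAN, COL1A1 and FN1, substrates of several members, had differences of 0.29, -0.23 and 0.28 and did not pass the test.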

How the data were processed

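Values were taken as deposited by the authors, who normalized the arrays by RMA with oligo and removed 1 low-intensity EtOH array. The deposited values are log2 expression, 1 per gene symbol. The versions of oligo and limma that the authors used are not given in the sources used here. For all 18508 genes the means over the arrays of each replicate number were equal (within 1e-10), a step that the study's methods do not describe. The fit without a replicate block therefore counts 6 residual degrees of freedom where the block leaves 4, and the data cannot test whether the numbers pair the arrays.

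Groups came from the labels. SAHA was tested against the 5 combined controls, as in the study's methods, and in a fit of 3 groups, with limma 3.58.1 in R 4.3.3, moderated without trend, and Benjamini-Hochberg adjustment over all 18508 genes. Calls needed a change of 1.5-fold or more and an adjusted p under 0.05. The code was tested on simulated data. The number of arrays limits the precision.

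Given in full were members called in any comparison, members with an unadjusted p under 0.05 and all SAHA arrays beyond all controls (up to 14), the TIMP genes and the best known member of each role. Other genes with values, such as ADAMTS15, ADAMTSL4, MMP9, MMP25, RECK, PLAT, PLAU and PCOLCE, were chosen after their values were seen. Up to 4 called genes of each list of other genes were named. Roles are from general knowledge. The members and lists were chosen with earlier results of these data known. Alternatives were quantile normalization, median centring, the dimmest genes left out (12339 of 18508 kept), an intensity trend, array weights and a replicate block. Others were each array left out, equal weight of both control groups, an unpaired t-test and no fold threshold. Leaving out all arrays of a replicate number was added after the data were seen.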

Additional observations from a re-analysis of the deposited data

Results flagged for a closer look

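TIMP1 had an untreated array that stood apart. Untreated replicate 3 was at 6.27 on the log2 scale, while the other 4 controls had a mean of 5.82, and the gap to the nearest of them was 0.72 of the range of the 5 controls, above the critical value of 0.71. Chance gives such a gap in about 1 of 20 groups of this size. The check was run at both ends on all 18 members given in full, so a single such gap among them could be chance. Without that array TIMP1 passed the test in limma (0.69 on the log2 scale, adjusted p = 0.0398). The array left out was also the control nearest to SAHA, so this pass is no independent support.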

How the results depend on the processing

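The number of members higher with SAHA against the combined controls was 0, and it became 1 with quantile normalization, 1 with the dimmest genes left out and 1 with array weights, in each case MMP16. Leaving out each array in turn gave 0 to 2, with MMP16 and TIMP1 called without untreated replicate 3 and ADAMTS2 without EtOH replicate 3. The counts of members called lower or in the other comparisons were 0 under all alternatives run. With the replicate block the count of members higher was 0, and MMP16 differed by 0.73 (adjusted p = 0.18). The block changed no call of a member. The unpaired t-test and the fit without a fold threshold called 0 members.

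Of 322 alternative values for the 18 members given in full, 294 kept their direction and side of the threshold. The sign turned only in MMP1, MMP3, MMP14, ADAM12 and ADAMTS1. With all arrays of a replicate number left out, MMP1 was -0.032 (number 2), MMP3 was 0.0073 (number 1) and 0.25 (number 3), MMP14 was -0.10 (number 1), ADAM12 was 0.025 (number 1) and 0.025 (number 2), and ADAMTS1 was -0.22 (number 3). With quantile normalization MMP14 was -0.047 and ADAMTS1 -0.055, with array weights MMP3 was 0.13 and MMP14 -0.021, with median centring ADAM12 was 0.0098, and with equal weight of the control groups ADAMTS1 was -0.024. Leaving out each array in turn gave MMP3 -0.26 to 0.13, MMP14 -0.052 to 0.063, ADAM12 -0.10 to 0.0044 and ADAMTS1 -0.13 to 0.14. The cause was not tested. Of the 8 called genes outside the families, PAPPA, THSD4, ACAN, BGN and IGFBP5 kept their call without any single array. With all arrays of replicate number 1 or number 3 left out, limma called 0 of all 18508 genes (2319 and 2672 had an unadjusted p under 0.05), while the differences stayed at -1.57 and -1.43 in BGN and at 1.27 and 1.03 in PAPPA. MMP3 and MMP26 are among the dimmest genes, so they have no value with those left out. For members near the array median the signal over background is unknown.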
